A study of Mus musculus with 6 samples.

Results

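The antioxidant, glutathione and metallothionein genes of sorted mouse skeletal stem cells were followed in 6 RNA-seq libraries from the Achilles tendon-to-bone interface. Members were chosen by a rule on gene symbols that used no measured value, but earlier results of these data were known. They were every symbol of the form Gpx, Prdx or Sod with a number and every Gsta, Gstk, Gstm, Gsto, Gstp, Gstt or Gstz gene. A named set was added, made of Mt1, Mt2, Txn1, Txn2, Txnip, Txnrd1, Txnrd2, Nqo1, Hmox1, Gclc, Gclm, Gsr, Gss, Cat, Srxn1, Nfe2l2 and Keap1. This gave 56 of the 26130 genes in the deposited table, in 8 roles. The cells came from C57BL/6 mice and were sorted from digested interfaces, the tissue in which tendon anchors in bone, at day 7 after injury. Injured libraries (n = 3) came from interfaces with a partial injury, sham control libraries (n = 2) from sham-operated ones, and 1 library was labelled uninjured. A description field names that last library a sham as well. It therefore stood alone when injured libraries were compared with sham control ones, and was pooled with the sham libraries in a second comparison. The labels give neither the age or sex of the mice, nor the surface markers of the sort, nor whether a library is 1 animal or a pool, so p-values reflect nothing but the scatter among these 6 libraries, part of which may be technical. cDNA was amplified from 150 pg of total RNA, an input at which scarce transcripts can drop out.

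Cells detoxify superoxide in steps. Superoxide dismutases turn it into hydrogen peroxide, which catalase splits into water and oxygen, while the glutathione peroxidases and the peroxiredoxins reduce it with electrons drawn mostly from glutathione or thioredoxin. Glutathione S-transferases couple glutathione to reactive compounds, and metallothioneins bind zinc and copper through their many cysteines. Many of these genes are switched on by the transcription factor NRF2 (Nfe2l2), which KEAP1 marks for destruction until oxidants or electrophiles modify it.

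Levels are given as CPM, counts scaled to a common library total after adjustment of library sizes by the trimmed mean of M-values (TMM). Total counts ran from 37506188 to 51089267 per library, and the members took 0.709% to 1.41% of them. Of the 56 members, Gpx2, Gpx5, Gpx6, Gsta1 and Gsta2 had a count of 0 in every library, which allows a level of up to 0.0113 CPM over all libraries. This limit covers counting error only, as reads carry no molecular identifiers. It also leaves out how reads were assigned among similar genes. In the reference transcripts 92.2% of the Gsta1, 75.6% of the Gsta2 and 28.5% of the Gpx2 sequence is shared with other annotated genes, so their 0 counts are uncertain. Gstt4 had 4 counts in all, and the remaining 50 members were tested against sham control. Itgav and Cd200, surface markers of mouse skeletal stem cells, had counts in every library, and summed to 64.7 to 230.1 CPM in injured, 110.5 and 211 CPM in sham libraries and 212 CPM in the uninjured one. Ptprc, Tek, Thy1, Enpep and Eng, markers selected against for such cells, summed to 121, 54.5 and 18.2 CPM in injured 1, 2 and 3. They summed to 297 and 0.663 CPM in sham 1 and sham 2 and to 97.6 CPM in the uninjured library. In injured 1 and sham 1 this was more than Itgav and Cd200 summed to, at 64.7 and 110.5 CPM. Transcripts of other cells were unequal within groups: 9 erythroid genes summed to 7.60 to 6076 CPM in injured libraries, 38763 and 1.19 CPM in sham 1 and sham 2, and 127 CPM in the uninjured library. The 12 endothelial markers summed to 91.6 to 428 CPM in injured libraries, 2148 CPM in sham 1 and 935 CPM in the uninjured library, whereas 10 of the 12 were at 0 in sham 2. The 10 Schwann cell markers summed to 593, 322 and 303 CPM in injured libraries, 5241 and 854 CPM in sham libraries and 945 CPM in the uninjured one, so that each injured library was under every other one. All 10 had a fold below 0 against sham control, and DESeq2 called 4 of them. The 9 chondrocyte markers summed to 15234, 7949 and 52879 CPM in injured libraries, 1564 and 20387 CPM in sham libraries and 1542 CPM in the uninjured one, with overlap through sham 2. Of these 9, 8 had a fold above 0 and DESeq2 called 2, Cnmd and Col9a1, at 7.93 and 5.69 on the log2 scale. Their part in the levels of the members was not tested. In bulk RNA, fewer cells of a type and less RNA per cell cannot be told apart.

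Divided by the length of the longest protein-coding transcript in the reference annotation, the mean level over the 6 libraries was highest for Gpx3 at 2056 CPM per kb. Gpx1 followed at 855, Mt2 at 821, Mt1 at 693 and Sod3 at 369 CPM per kb. The 2 genes at the ends of that list, Gpx3 and Sod3, encode the secreted members of their families, the plasma glutathione peroxidase and the extracellular superoxide dismutase.

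No member passed the test in either comparison. Against sham control, edgeR's quasi-likelihood test with Benjamini-Hochberg adjustment called 0 of 16752 genes, and the smallest adjusted p among members was 0.865. At an unadjusted p under 0.05 it gave 5 of 50 members, all lower in injured libraries (Gstm1, Gstm3, Gsta3, Gpx3 and Txnip), beside 4.64% of all genes in either direction, 2.44% higher and 2.20% lower. DESeq2 called 3 members lower in injured libraries (Gstm1, Gsta3 and Gpx3), beside 0.770% of all genes lower, 1.43% higher and 2.20% in either direction. Gsta3 passed the filter on low counts only through sham 1 and the uninjured library, where it was high, so its call adds no support. limma-voom called no member and 0.00597% of all genes. Libraries of the groups did not overlap in 13 of the 50 members, which is 26.0%, beside 21.0% of all genes: all injured libraries exceeded both sham ones in 6 (Cat, Gpx7, Gpx8, Gss, Prdx1 and Prdx4) and lay below both in 7 (Gclc, Gpx3, Gsta3, Gstm1, Gstm3, Gstt3 and Sod3). Over all genes, the shares were 11.9% above and 9.13% below. Gsta3 is among the 7 by depth alone, as injured 3 and sham 2 had 2 counts each. The log2 fold change, injured over sham control, was above 0 in 20 of 50 members and in 53.7% of all genes, with medians of -0.12 for members and 0.09 for all genes. With library size alone in place of TMM the median of all genes moved to 0.23 and 25 of 50 members were above 0.

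Against all 3 non-injured libraries, edgeR called 0 of 14110 genes, and the smallest adjusted p among the 46 members tested was 0.415. At an unadjusted p under 0.05 it gave 9 members, beside 7.43% of all genes. Of these, 4 were higher in injured libraries (Gpx7, Gpx8, Gss and Prdx1), beside 3.71% of all genes, and 5 were lower (Gpx3, Gstm1, Gstm3, Sod3 and Txnip), beside 3.72%. DESeq2 called 4 members, all lower (Gpx3, Gstm1, Gstm3 and Sod3), beside 1.45% of all genes lower, 0.992% higher and 2.45% in either direction. limma-voom called no member and 0.0496% of all genes. Every injured library was above all 3 non-injured ones in 5 members (Gpx7, Gpx8, Gss, Prdx1 and Prdx4), beside 9.23% of all genes, and below them in 6 (Gclc, Gpx3, Gstm1, Gstm3, Gstt3 and Sod3), beside 7.07%. Together that is 11 of 46 members or 23.9%, beside 16.3% of all genes. The fold was above 0 in 25 of 46 members, or 22 with size factors by relative log expression, beside 50.1% of all genes. The comparisons share the injured and the sham libraries and are not independent.

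**Figure D1:**
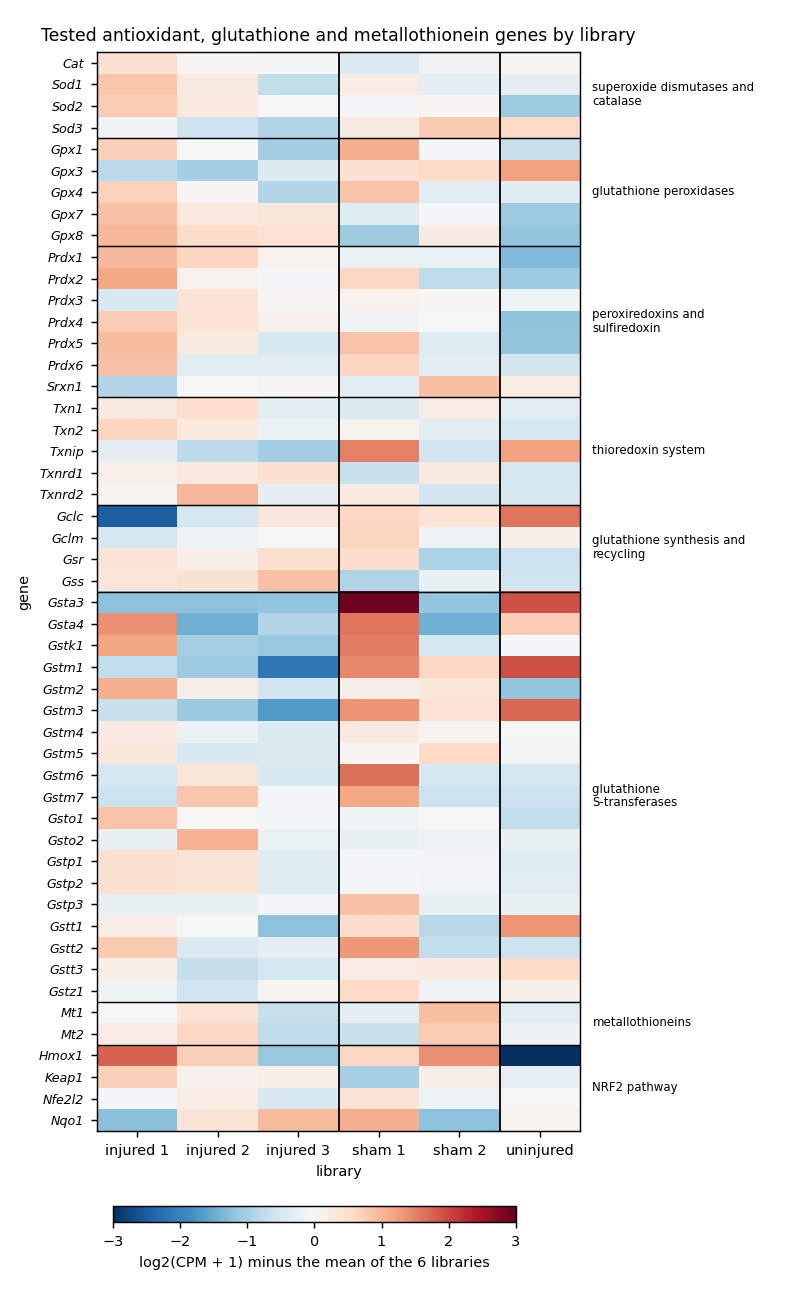
Heat map of the 50 members tested against sham control, grouped by role, in the 6 libraries. Colour is log2(CPM + 1) minus the mean of the 6 libraries, cut at 3 in either direction; Gstm1, Gstm3, Gpx3 and Sod3 are paler or bluer in all 3 injured libraries than in the sham and uninjured ones, and Gsta3 is red in sham 1 and the uninjured library only.

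Among the enzymes that act on superoxide, the extracellular dismutase Sod3 was lower in injured libraries, at 1172, 828 and 677 CPM in injured 1, 2 and 3, against 1535 and 2188 CPM in sham 1 and 2 and 1873 CPM in the uninjured library. Every injured library was below every other one. Sod3 averaged 892 ± 254 CPM in injured libraries and 1862 ± 462 CPM in sham libraries (SD, n = 3 and 2). Its log2 fold change was -1.06 ± 0.47 (SE) against sham control and -1.07 ± 0.39 against all non-injured libraries, with edgeR adjusted p of 0.865 and 0.566; DESeq2 gave adjusted p of 0.207 and 0.0470. The intracellular dismutases did not share that order of libraries. The cytosolic copper-zinc enzyme Sod1 had 63.0, 41.7 and 20.4 CPM in injured libraries, 40.4 and 27.9 CPM in sham libraries and 28.5 CPM in the uninjured one. In the reference transcripts 35.4% of the Sod1 sequence is shared with other annotated genes, so its counts are uncertain. The mitochondrial manganese enzyme Sod2 had 136, 97.9 and 79.3 CPM in injured libraries, 77.6 and 83.3 CPM in sham libraries and 37.4 CPM in the uninjured one. In both genes the groups overlapped, with injured 3 inside the range of the sham libraries for Sod2 and below both for Sod1. Cat, the peroxisomal catalase, had 80.5, 61.1 and 56.6 CPM in injured libraries, 44.2 and 54.4 CPM in sham libraries and 60.9 CPM in the uninjured one. Injured 3 exceeded sham 2 only narrowly, and the uninjured library lay among the injured ones. The summed level of the 4 genes, which Sod3 dominates, was 1451, 1028 and 833 CPM in injured libraries, 1697 and 2354 CPM in sham libraries and 2000.2 CPM in the uninjured one.

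The glutathione peroxidases did not share 1 direction. Gpx3, the secreted plasma enzyme, had 1602, 1374 and 2109.6 CPM in injured libraries, 3847 and 4100.2 CPM in sham libraries and 6628 CPM in the uninjured library. The highest injured library was below the lowest sham library, and the uninjured library was the highest of all. The mean was 1695 ± 376 CPM in injured libraries and 3974 ± 179 CPM in sham libraries (SD, n = 3 and 2), 0.427 times the sham level. On the log2 scale this was -1.23 ± 0.51 (SE) against sham control and -1.52 ± 0.45 against all non-injured libraries; edgeR gave adjusted p of 0.865 and 0.452, and DESeq2 0.0170 and 0.00108. Across the 17 settings tried against sham control its fold stayed between -1.44 and -1.10.

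The peroxidases of the endoplasmic reticulum, which use hydrogen peroxide made during disulfide bond formation, had the opposite order. Gpx7 had 246, 162 and 168 CPM in injured libraries, 102 and 127 CPM in sham libraries and 61.5 CPM in the uninjured library. Gpx8 had 164, 120.5 and 111 CPM in injured libraries, 38.7 and 97.0 CPM in sham libraries and 35.1 CPM in the uninjured library. In both, every injured library was above every other library, and the uninjured library was the lowest. The fold (log2) of Gpx7 was 0.74 ± 0.39 (SE) against sham control and 0.98 ± 0.37 against all non-injured libraries, and that of Gpx8 was 0.96 ± 0.50 and 1.21 ± 0.47. The adjusted p by edgeR was 0.865 for both against sham control, and 0.596 for Gpx7 and 0.608 for Gpx8 against all non-injured libraries. The 2 sham libraries differed by more than 2-fold in Gpx8, and without sham 1 its fold against sham control was 0.44.

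Gpx1, the abundant cytosolic peroxidase, had 1333, 803 and 394 CPM in injured libraries, 1697 and 773 CPM in sham libraries and 497 CPM in the uninjured one. Gpx4, which reduces lipid hydroperoxides in membranes, had 375, 238 and 126 CPM in injured libraries, 417 and 182 CPM in sham libraries and 180.4 CPM in the uninjured one. Both were high in injured 1 and sham 1 and low in injured 3, with log2 fold changes of -0.55 ± 0.63 and -0.28 ± 0.58 (SE) against sham control. Injured 1 and sham 1 also held the most erythroid and neutrophil transcripts, the neutrophil markers summing to 6864 CPM in injured 1 and 11023 CPM in sham 1 and to at most 909 CPM elsewhere; their part in the levels of Gpx1 and Gpx4 was not tested. In the reference transcripts 66.8% of the Gpx4 sequence is shared with other annotated genes, mostly the pseudogene Gpx4-ps2, so its counts are uncertain.

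**Figure D2:**
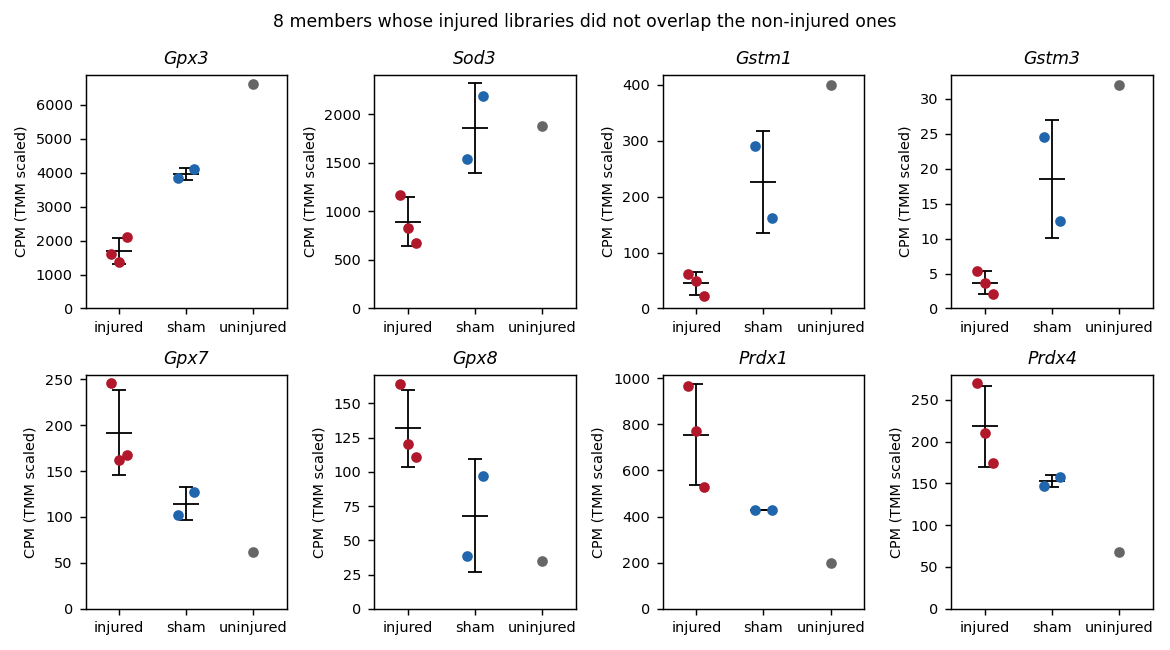
CPM of 8 members in each library, with injured, sham and uninjured libraries from left to right; points are libraries, bars the mean ± SD (none for the single uninjured library). Gpx3, Sod3, Gstm1 and Gstm3 are lower and Gpx7, Gpx8, Prdx1 and Prdx4 higher in all 3 injured libraries than in any other library, in no case past edgeR's adjusted threshold.

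Of the peroxiredoxins, thiol enzymes that reduce peroxide with electrons from thioredoxin, Prdx1 and Prdx4 were the members in which every injured library was above every other one. Prdx1, the main cytosolic form, had 968, 771 and 528 CPM in injured libraries, 428 and 429.7 CPM in sham libraries and 197 CPM in the uninjured library. The sham libraries were nearly equal, and the uninjured library was far below either of them. The fold was 0.82 ± 0.43 (SE) against sham control and 1.10 ± 0.43 against all non-injured libraries, with edgeR adjusted p of 0.865 and 0.619. Prdx4, the form of the endoplasmic reticulum, had 269.9, 211 and 174 CPM in injured libraries, 147 and 158 CPM in sham libraries and 68.0 CPM in the uninjured library. Its folds were 0.51 ± 0.37 and 0.81 ± 0.40, with adjusted p of 0.865 and 0.772. Prdx4, Gpx7 and Gpx8, all of the endoplasmic reticulum, had the same order of groups as the cytosolic Prdx1: injured highest, then sham, then the uninjured library. The order was thus not particular to that compartment. The uninjured library lay below both sham libraries in 40% of the tested members, beside 26.2% of all genes. The share of all genes with the full order was not counted.

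The other peroxiredoxins overlapped between groups. Prdx2, abundant in red cells, had 380.1, 184 and 162 CPM in injured libraries, 262 and 100.2 CPM in sham libraries and 79.8 CPM in the uninjured one. Like Gpx1, it was highest of its group in injured 1 and in sham 1, the libraries with the most haemoglobin. Prdx3 and Prdx5, both found in mitochondria, and Prdx6, which also acts on phospholipids, had folds against sham control of -0.04 ± 0.45, -0.00 ± 0.57 and -0.06 ± 0.54. Prdx5 spanned 132 to 354 CPM in injured libraries and 141 to 331 CPM in sham libraries, and had 80.0 CPM in the uninjured one. Srxn1, sulfiredoxin, restores overoxidised peroxiredoxins and had 41.6, 76.4 and 81.1 CPM in injured libraries, 61.5 and 145 CPM in sham libraries and 90.2 CPM in the uninjured one. Its fold of -0.64 ± 0.51 was not called (adjusted p = 0.865 by edgeR), and injured 2 and 3 lay between the sham libraries. Of the 7 genes of this role, 3 had a fold above 0 against sham control with TMM and 6 with library size alone.

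The promoter of Prdx1 is shown because the gene is a textbook NRF2 target and carries the core of the antioxidant response element, the sequence to which NRF2 binds. The core was searched as TGACNNNGC on both strands of the RefSeq windows (GRCm38.p6), which run from 250 bases before to 50 bases after a gene's start; for genes with several starts the most upstream was used. Capitals mark the match, which is on the reverse strand; the window is chr4:116685349-116685648, plus strand.
Prdx1: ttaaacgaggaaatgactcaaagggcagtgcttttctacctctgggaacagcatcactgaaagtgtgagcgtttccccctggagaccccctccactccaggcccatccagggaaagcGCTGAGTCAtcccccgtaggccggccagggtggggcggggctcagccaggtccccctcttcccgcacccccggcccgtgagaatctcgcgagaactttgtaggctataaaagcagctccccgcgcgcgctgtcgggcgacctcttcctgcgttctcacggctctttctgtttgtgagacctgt
A promoter was listed for 49 of the 56 members. The core was found in 8 of them (Gclm, Gsta3, Gstm5, Mt2, Nfe2l2, Prdx1, Sod1 and Srxn1), which is 16.3%, beside 12.4% of all 27025 promoters of that length. Of those 8 genes, Prdx1 had every injured library above both sham libraries and Gsta3 every one below, while the groups overlapped in the other 6. For Gsta3 this rests on depth alone, as injured 3 and sham 2 had 2 counts each. A match is a description of letters, not of binding.

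The thioredoxin system supplies the peroxiredoxins with electrons. Txn1, cytosolic thioredoxin, had 274, 323 and 183 CPM in injured libraries, 171 and 264 CPM in sham libraries and 182 CPM in the uninjured one. Its reductase Txnrd1, a selenoprotein, had 109, 121 and 135 CPM in injured libraries, 61.0 and 117 CPM in sham libraries and 69.0 CPM in the uninjured one. Groups overlapped in both genes, and the folds against sham control were 0.26 ± 0.42 and 0.45 ± 0.42 (SE). The mitochondrial forms Txn2 and Txnrd2 had folds of 0.39 ± 0.41 and 0.50 ± 0.81 and overlapped as well.

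Txnip, which binds and inhibits thioredoxin and curbs glucose uptake, had 109, 76.7 and 64.7 CPM in injured libraries, 381 and 88.6 CPM in sham libraries and 308 CPM in the uninjured library. Sham 2 lay inside the range of the injured libraries, so the groups overlapped, and the high values were those of sham 1 and the uninjured library. The fold was -1.49 ± 0.62 (SE) against sham control, with an adjusted p of 0.865 by edgeR and 0.373 by DESeq2. Sham 1 and the uninjured library are also the libraries with the most endothelial transcripts, Pecam1 being at 434 and 237 CPM there, against 23.4 to 68.8 CPM in injured libraries and 0.166 CPM in sham 2. Without sham 1 the Txnip fold against sham control was -0.085. Leaving out the uninjured library as well did not move it, as that library is a group of its own there. Sham 1 also held the most erythroid, neutrophil and Schwann cell transcripts. The part of any of these cells in the Txnip level was not tested.

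Glutathione is built from glutamate, cysteine and glycine. Gclc, the catalytic subunit of glutamate-cysteine ligase, which sets the rate, had 2.87, 14.2 and 26.2 CPM in injured libraries, 32.1 and 27.4 CPM in sham libraries and 64.2 CPM in the uninjured library. Every injured library was below every other one, but the injured libraries differed widely and injured 3 came close to sham 2. The fold was -1.05 ± 0.84 (SE) against sham control and -1.52 ± 0.79 against all non-injured libraries, with edgeR adjusted p of 0.865 and 0.777. Gclm, the modifier subunit, had 18.6, 24.5 and 27.9 CPM in injured libraries, 44.0 and 24.7 CPM in sham libraries and 31.1 CPM in the uninjured one, with overlap. Gss, glutathione synthetase, which adds the glycine, had 19.0, 20.4 and 27.7 CPM in injured libraries, 7.32 and 12.2 CPM in sham libraries and 9.18 CPM in the uninjured library. Here every injured library was above every other one, opposite to Gclc. The fold of Gss was 1.19 ± 0.66 against sham control and 1.22 ± 0.52 against all non-injured libraries, with adjusted p of 0.865 and 0.672. Gsr, glutathione reductase, had 113, 95.6 and 118 CPM in injured libraries, 122 and 43.6 CPM in sham libraries and 54.3 CPM in the uninjured one. The injured libraries were close together, between the sham libraries, and without sham 1 the fold of Gsr against sham control was 1.32, which edgeR did not call either (adjusted p = 0.790).

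**Figure D3:**
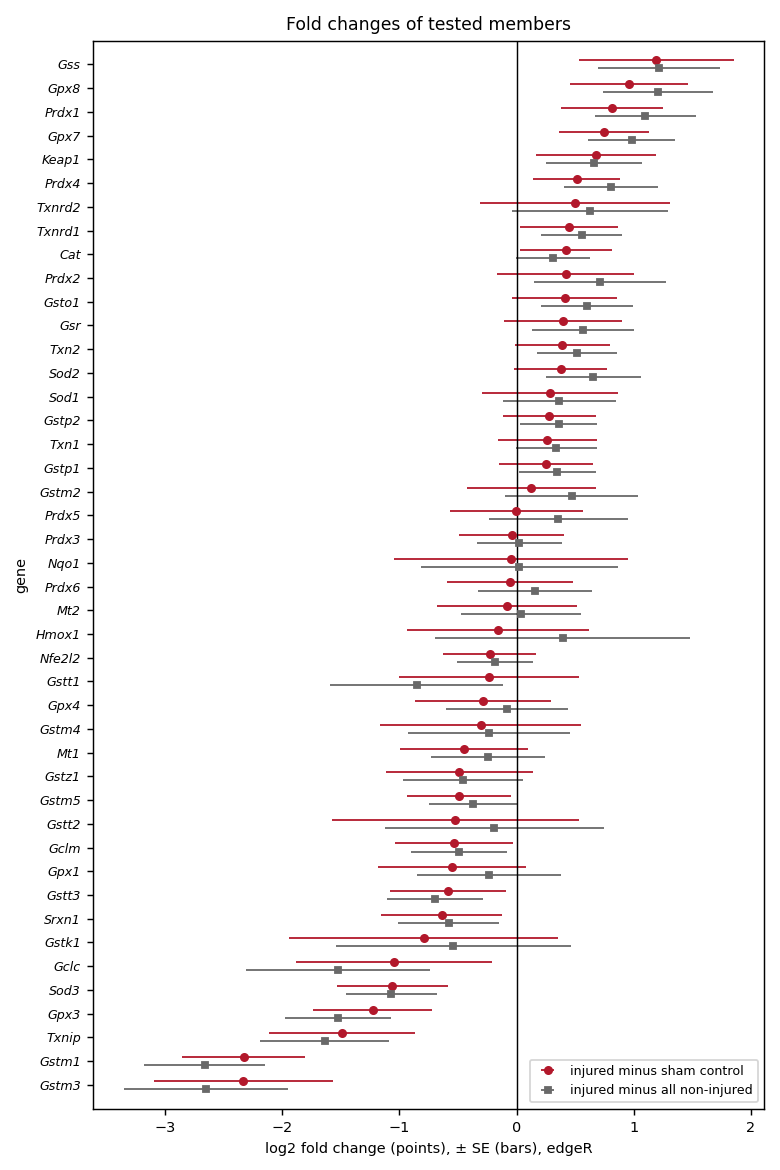
Log2 fold changes (points) ± SE (bars) by edgeR of 44 members, injured minus sham control and injured minus all non-injured; the 6 tested members with no count in 2 or more libraries are left out. Gstm1 and Gstm3 lie lowest, at -2.33 each against sham control, and Gss, Gpx8, Prdx1 and Gpx7 lie at the upper end.

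The glutathione S-transferases formed the largest role, with 22 members, of which 19 were tested against sham control. The fold was below 0 in 14 of the 19 under all 3 scalings tried (TMM, relative log expression and library size alone). With TMM their median was -0.53 beside 0.09 for all genes, of which 53.7% had a fold above 0. In some other settings the fold of Gsta4, Gstk1, Gstm6, Gstm7, Gstt1 and Gstt2 rose above 0, for Gstt1 in 6 of 17. In each of these genes sham 1 exceeded sham 2. Of the 19, 4 had all 3 injured libraries under both sham ones (Gsta3, Gstm1, Gstm3 and Gstt3), beside 9.13% of all genes. None had all 3 above both, beside 11.9% of all genes. In Gsta3 injured 3 and sham 2 had 2 counts each and differed by depth alone. Gstm1, a mu class enzyme of broad substrate range, had 62.5, 49.2 and 23.1 CPM in injured libraries, 290.3 and 161 CPM in sham libraries and 399.6 CPM in the uninjured library. Even the highest injured library was far below the lowest sham library. The mean was 44.9 ± 20.1 CPM in injured libraries and 226 ± 91.1 CPM in sham libraries (SD, n = 3 and 2). The fold was -2.33 ± 0.52 (SE) against sham control and -2.66 ± 0.52 against all non-injured libraries. Gstm1 had the smallest p of all members in both comparisons, 0.00311 and 0.00115, but edgeR's adjusted p of 0.865 and 0.415 did not pass; DESeq2 gave 0.00545 and 8.71e-05. Its unadjusted p was under 0.05 in all 17 settings tried against sham control, with folds from -2.69 to -1.85. Without sham 1 its fold against sham control was -1.85, whether or not the uninjured library was left out too. Without sham 1 and injured 1 it was -2.16. The part of endothelial and blood cells in the Gstm1 level was not tested.

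Gstm3, of the same gene cluster, had lower counts and had the same order of libraries, with 5.32, 3.62 and 2.08 CPM in injured libraries, 24.5 and 12.5 CPM in sham libraries and 32.0 CPM in the uninjured library. Every injured library was below every other one, as in Gstm1. The fold was -2.33 ± 0.77 (SE) against sham control and -2.65 ± 0.70 against all non-injured libraries, with edgeR adjusted p of 0.865 and 0.452 and DESeq2 adjusted p of 0.0802 and 0.00968. Parts of these transcripts are shared with other annotated genes, 34.3% of Gstm1 and 37.7% of Gstm3 by stretches of 31 bases, mostly with pseudogenes, so how reads were assigned among them bears on both.

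The 7 Gstm genes lie together on chromosome 3, in the order Gstm5, Gstm7, Gstm6, Gstm3, Gstm2, Gstm1 and Gstm4 in the reference annotation. Gstm2, which lies between Gstm3 and Gstm1, had 103, 55.5 and 32.4 CPM in injured libraries, 55.0 and 61.6 CPM in sham libraries and 20.8 CPM in the uninjured one, a fold of 0.13 ± 0.55. Gstm4 had 10.5, 7.61 and 6.19 CPM in injured libraries, 10.8 and 9.14 CPM in sham libraries and 8.52 CPM in the uninjured one. Gstm5 had 66.2, 38.3 and 38.9 CPM in injured libraries, 54.4 and 80.2 CPM in sham libraries and 50.1 CPM in the uninjured one. The groups overlapped in these 3 genes, and Gstm6 and Gstm7 were at 0 in the same 3 of the 6 libraries (injured 1, sham 2 and uninjured). Whether the fold of Gstm1 differs from those of the other Gstm genes was not tested.

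**Figure D4:**
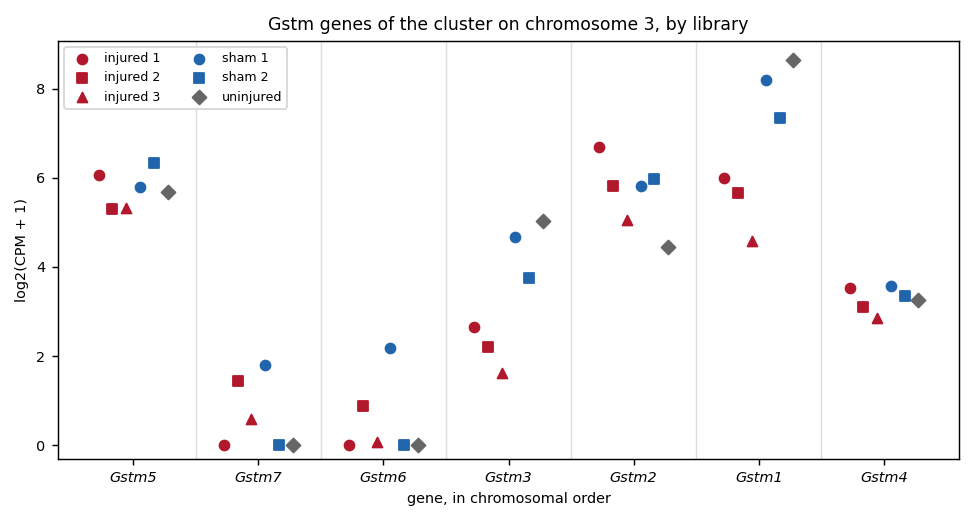
Level, as log2(CPM + 1), of the 7 Gstm genes in their order on chromosome 3, in each of the 6 libraries. In Gstm3 and Gstm1 the 3 injured libraries lie below the sham and uninjured ones, whereas in Gstm2, Gstm4 and Gstm5 the groups overlap.

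The promoters of Gstm1 and Gstm3 are shown because these genes of 1 cluster had the same order of libraries. Neither window (GRCm38.p6, minus strand; Gstm1 at chr3:108017924-108018223 and Gstm3 at chr3:107969125-107969424) holds the antioxidant response element core, so no letters are in capitals.
Gstm1: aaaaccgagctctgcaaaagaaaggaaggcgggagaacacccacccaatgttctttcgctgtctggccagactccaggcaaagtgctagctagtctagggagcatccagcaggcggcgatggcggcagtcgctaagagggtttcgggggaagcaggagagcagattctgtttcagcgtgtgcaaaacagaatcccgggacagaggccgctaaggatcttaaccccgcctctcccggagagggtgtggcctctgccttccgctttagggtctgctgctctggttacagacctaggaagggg
Gstm3: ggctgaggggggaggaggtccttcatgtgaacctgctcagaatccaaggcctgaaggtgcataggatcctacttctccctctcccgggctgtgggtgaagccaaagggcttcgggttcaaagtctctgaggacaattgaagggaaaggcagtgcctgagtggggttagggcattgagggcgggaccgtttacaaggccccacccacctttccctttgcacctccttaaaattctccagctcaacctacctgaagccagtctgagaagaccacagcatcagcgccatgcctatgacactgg
That the letters are absent from these windows says nothing of sites elsewhere in either gene.

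Of the alpha class, Gsta1 and Gsta2 had no counts. Gsta3 had 0, 0 and 2 counts in injured libraries, 617 and 2 counts in sham libraries and 320 counts in the uninjured library. Its signal lay almost wholly in sham 1 and the uninjured library, and sham 2 was at the level of injured 3. Per depth the injured libraries held 0.00156 times the sham level, with a 95% exact interval for counting error of 0.000189 to 0.00567. DESeq2 called it (adjusted p = 0.00997) and edgeR did not (0.865). It passed the filter on low counts only through sham 1 and the uninjured library. In the main comparison with all non-injured libraries the filter left Gsta3 out. Without sham 1 the unadjusted p by edgeR was 0.501. The endothelial markers were also highest in sham 1 and the uninjured library. They still summed to 91.6 to 428 CPM in injured libraries, where Gsta3 was at or near 0, against 0.746 CPM in sham 2. Their part in the Gsta3 level was not tested. Gsta4 was at 0 in injured 2 and sham 2 and reached at most 7.22 CPM, in sham 1.

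Among the other classes, Gstt3 of the theta class had 31.5, 16.6 and 19.0 CPM in injured libraries, 32.6 and 34.6 CPM in sham libraries and 41.3 CPM in the uninjured one. Injured 1 lay just below sham 1, and the fold was -0.59 ± 0.50 (SE, edgeR adjusted p = 0.874). In the reference transcripts 27.0% of the Gstt3 sequence is shared with other annotated genes, mostly Gm20441, so its counts are uncertain. Gstp1, the pi class enzyme, was the most abundant transferase per length, at 288, 274 and 162 CPM in injured libraries, 204 and 200.4 CPM in sham libraries and 163 CPM in the uninjured one. Its copy Gstp2 followed it at 0.583 to 0.605 times its count in every library; 67.5% of the Gstp1 sequence is shared with Gstp2, so the 2 cannot be told apart with certainty. Gsto1 had 99.7, 55.5 and 53.7 CPM in injured libraries, 49.8 and 54.9 CPM in sham libraries and 32.5 CPM in the uninjured one, with overlap. Gstk1, Gstt1, Gstt2 and Gstz1 overlapped between groups with folds from -0.79 to -0.24, and Gstp3 and Gsto2 reached at most 1.14 and 1.40 CPM.

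The metallothioneins were among the most abundant members per length and their groups overlapped. Mt1 had 701, 933 and 431 CPM in injured libraries, 574 and 1306 CPM in sham libraries and 567 CPM in the uninjured library. Mt2 had 451, 597 and 229 CPM in injured libraries, 243 and 659 CPM in sham libraries and 340.1 CPM in the uninjured library. Both genes were highest in sham 2, then in injured 2, and the 2 sham libraries differed by more than 2-fold in each. The fold was -0.45 ± 0.54 (SE) for Mt1 and -0.09 ± 0.60 for Mt2 against sham control, with edgeR adjusted p of 0.941 and 1.000, and the fold of Mt2 was 0.11 with library size alone.

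Mt1 and Mt2 lie side by side on chromosome 8, and their promoters are shown because metal response elements, the sites of the zinc-sensing factor MTF1, are the textbook feature of these genes. The core of these elements was searched in a loose form, TGCNCNC with any base at N, on both strands. Capitals mark the matches to this pattern, 3 for Mt1 (chr8:94178839-94179138) and 6 for Mt2 (chr8:94172368-94172667), both on the plus strand of GRCm38.p6 in RefSeq. A stricter form of the core could leave some of them out.
Mt1: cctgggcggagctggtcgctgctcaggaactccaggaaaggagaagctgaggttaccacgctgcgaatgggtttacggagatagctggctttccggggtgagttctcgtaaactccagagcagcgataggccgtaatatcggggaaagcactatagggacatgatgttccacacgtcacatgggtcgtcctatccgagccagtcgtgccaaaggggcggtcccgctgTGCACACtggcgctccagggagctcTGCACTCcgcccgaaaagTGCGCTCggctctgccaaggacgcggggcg
Mt2: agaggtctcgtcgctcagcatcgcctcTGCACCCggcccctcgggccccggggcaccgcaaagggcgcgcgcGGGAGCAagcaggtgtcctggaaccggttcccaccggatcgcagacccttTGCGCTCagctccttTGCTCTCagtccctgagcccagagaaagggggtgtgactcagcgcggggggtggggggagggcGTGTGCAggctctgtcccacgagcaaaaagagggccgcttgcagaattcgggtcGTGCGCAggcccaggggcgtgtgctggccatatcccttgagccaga
This loose pattern is short and common: it was found in 26 of the 49 member promoters (53.1%) and in 50.4% of all promoters. A match to it describes letters, not binding of MTF1. Of the members with a promoter, only Mt2 held 6 matches; Gclm, Gstm1, Mt1 and Srxn1 held 3 each.

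NRF2 itself and its inhibitor did not separate the groups. Nfe2l2 had 82.3, 99.5 and 62.4 CPM in injured libraries, 113 and 77.4 CPM in sham libraries and 86.3 CPM in the uninjured one, a fold of -0.23 ± 0.40 (SE). Keap1 had 81.0, 53.0 and 56.2 CPM in injured libraries, 23.8 and 55.5 CPM in sham libraries and 40.9 CPM in the uninjured one, a fold of 0.68 ± 0.51. In both, at least 1 sham library lay inside the range of the injured ones. Nqo1, a quinone reductase often used as a readout of NRF2, had 5.09, 18.2 and 27.0 CPM in injured libraries, 29.5 and 5.19 CPM in sham libraries and 14.6 CPM in the uninjured one. The spread within each group was wider than the difference between them, and the fold of -0.05 ± 1.00 became 2.12 without sham 1 and injured 1 (unadjusted p = 0.0199, adjusted p = 0.340 by edgeR). Hmox1, haem oxygenase, which breaks down haem, had 547, 263 and 71.4 CPM in injured libraries, 243 and 411 CPM in sham libraries and 14.8 CPM in the uninjured one. It differed widely among injured libraries and was lowest in the uninjured library. The macrophage markers summed to 4997, 1253 and 38.4 CPM in injured 1, 2 and 3, the order of Hmox1 there, but to 2982 and 47.3 CPM in sham 1 and 2, the reverse of its order; their part in its level was not tested.

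**Figure D5:**
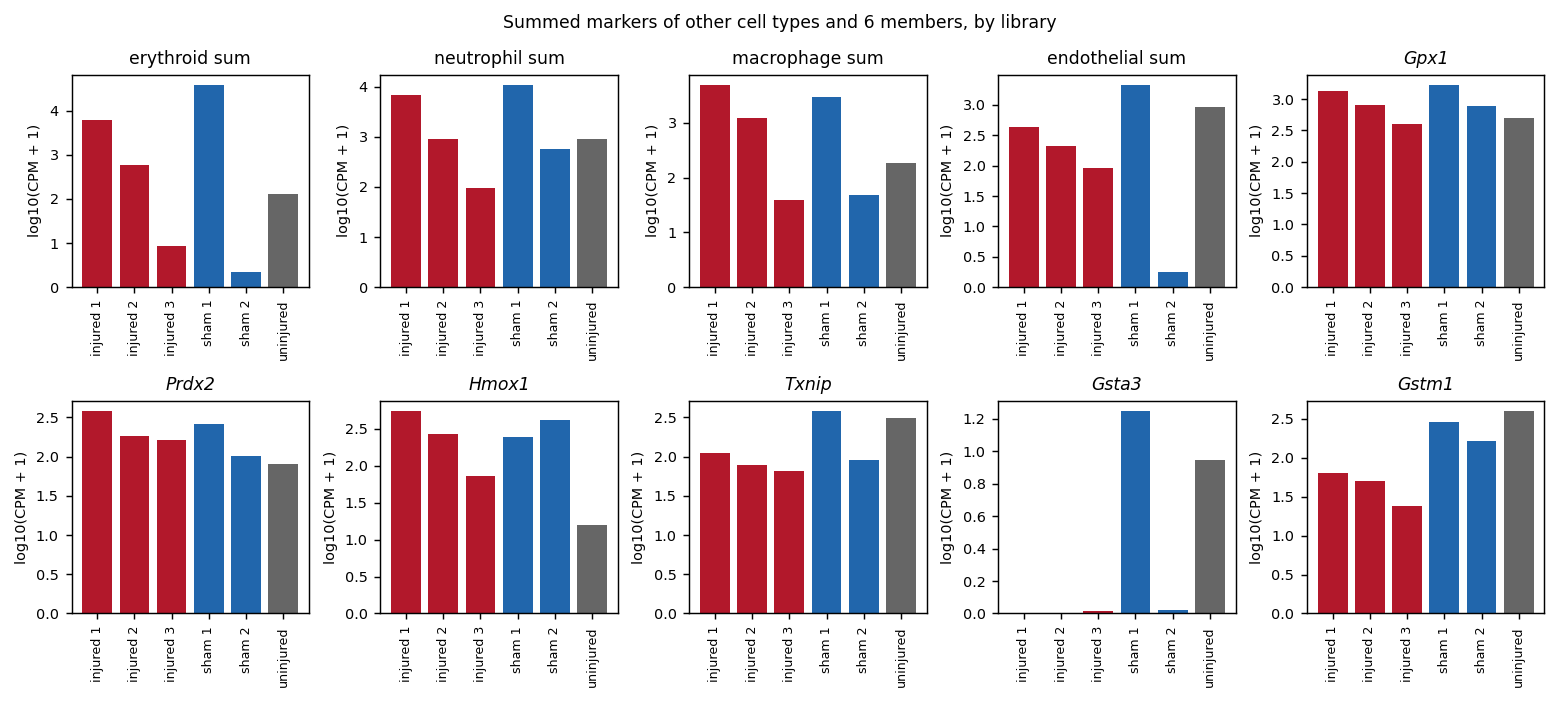
Summed CPM of erythroid, neutrophil, macrophage and endothelial markers and CPM of 6 members, as log10(CPM + 1), in the 3 injured, 2 sham and 1 uninjured libraries from left to right. Gpx1 and Prdx2 are high in injured 1 and sham 1, where blood markers are high, and Txnip and Gsta3 are high in sham 1 and the uninjured library, where endothelial markers are high.

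Many members varied within groups. The 2 sham libraries differed by more than 2-fold in 21 of 50 members (42%), beside 59.7% of all genes, and the injured libraries spanned more than 2-fold in 24 (48%), beside 68.5%. Injured 1 was the highest injured library in 30 members (60%), beside 36.8% of all genes. In 17 members (34%, beside 22.1% of all genes) injured 1 was the highest injured library and sham 1 was above sham 2, the order of the blood markers: Gpx1, Gpx4, Gsta4, Gstk1, Gstm1, Gstm3, Gstm4, Gstp1, Gstp2, Gstt1, Gstt2, Prdx2, Prdx5, Prdx6, Sod1, Txn2 and Txnip. The uninjured library lay below both sham libraries in 20 members (40%), beside 26.2% of all genes, above both in 7 (14%), beside 29.8%, and between them in 23 (46%), beside 44.0%. With 1 uninjured library this is a description.

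Genes around the members were followed in 9 lists of the same pathways, chosen with earlier results of these data known. Of 11 regulators and partners of NRF2, 2 had an unadjusted p under 0.05 against sham control, both lower in injured libraries, beside 2.20% of all genes lower. The counts of the other lists at that threshold stand beside the same 4.64% of all genes in either direction. Mafk, a small Maf protein that pairs with NRF2 on DNA, had 56.8, 22.9 and 28.1 CPM in injured libraries, 109 and 90.8 CPM in sham libraries and 95.1 CPM in the uninjured one (fold -1.48 ± 0.49). Sqstm1, the autophagy receptor p62, which binds KEAP1, had 531, 510.2 and 445 CPM in injured libraries, 717 and 1351 CPM in sham libraries and 898 CPM in the uninjured one (fold -1.06 ± 0.44). The injured libraries were the 3 lowest in both, and the edgeR adjusted p did not pass.

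Of 22 further NRF2 target genes, 1 had an unadjusted p under 0.05 against sham control. Idh1, the cytosolic isocitrate dehydrogenase that makes NADPH, had 132, 121 and 126 CPM in injured libraries, 50.2 and 54.8 CPM in sham libraries and 43.2 CPM in the uninjured one. Both groups were tight and far apart, with a fold of 1.27 ± 0.36 (SE), and DESeq2 called Idh1 higher in injured libraries (adjusted p = 0.0259), whereas edgeR called no gene. The medians of the list were -0.05 against sham control and -0.02 against all non-injured libraries, beside 0.09 and 0.00 for all genes. DESeq2 also called Aldh3a1, an aldehyde dehydrogenase, lower against all non-injured libraries, and it is named here after its values were seen: it had 0, 0.116 and 2.98 CPM in injured libraries, 8.05 and 22.4 CPM in sham libraries and 153 CPM in the uninjured one.

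In the list of metal handling, 1 of 11 tested genes had an unadjusted p under 0.05. Cp, ceruloplasmin, the copper-bearing ferroxidase, had 44.1, 48.5 and 71.7 CPM in injured libraries, 139.9 and 259 CPM in sham libraries and 166 CPM in the uninjured one. Every injured library was below every other one, with a fold of -1.87 ± 0.43 (SE), called by DESeq2 (adjusted p = 0.00524) and not by edgeR. Of 13 tested sources of superoxide and hydrogen peroxide, 12 had a fold below 0 and 1 above, beside 53.7% of all genes above 0. Their median was -0.99, beside 0.09 for all genes, and none had an unadjusted p under 0.05, beside 4.64% of all genes. Several of these are phagocyte genes: Cybb, the catalytic subunit of the phagocyte oxidase, had 40.7, 15.3 and 0.343 CPM in injured libraries, 126 and 0 CPM in sham libraries and 10.9 CPM in the uninjured one, which is the order of the neutrophil markers within each group. The part of blood cells in that list was not tested. Of 9 tested genes of haem and iron, Steap3, a ferrireductase, had 70.1, 72.2 and 81.1 CPM in injured libraries, 123 and 146 CPM in sham libraries and 122 CPM in the uninjured one (fold -0.85 ± 0.34, unadjusted p = 0.0408). Of the 10 microsomal transferases, glutaredoxins and glyoxalases, 15 genes of glutathione turnover and cysteine supply and 18 of selenoprotein synthesis, none had an unadjusted p under 0.05 against sham control, and 6, 4 and 10 of them had a fold above 0. Of the 7 genes related to Txnip, Mlxipl, a glucose-sensing factor that induces Txnip, was at 0 in every injured library and at 0.0811 and 4.14 CPM in sham libraries and 3.92 CPM in the uninjured one.

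The further genes of these lists with the smallest p against sham control had the following levels. Ephx1, microsomal epoxide hydrolase, had 74.6, 63.3 and 31.6 CPM in injured libraries, 248 and 65.6 CPM in sham libraries and 213 CPM in the uninjured one, the split of libraries also found in Txnip. Mgst1, a membrane-bound glutathione transferase, had 65.0, 39.5 and 16.1 CPM in injured libraries, 106 and 61.5 CPM in sham libraries and 105 CPM in the uninjured one. In both genes injured 1 lay above sham 2, and the folds were -1.47 ± 0.64 and -1.06 ± 0.62 (SE). Without sham 1 they were -0.22 for Ephx1 and -0.62 for Mgst1. Mgst2 reached at most 2.81 CPM, in injured 1, and was at 0 in both sham libraries. Dpep1, a dipeptidase that cleaves cysteinylglycine, had 63.3, 8.39 and 6.36 CPM in injured libraries, 94.3 and 60.9 CPM in sham libraries and 104 CPM in the uninjured one. Anpep, an aminopeptidase, had 50.4, 48.9 and 54.8 CPM in injured libraries, 77.5 and 80.4 CPM in sham libraries and 60.8 CPM in the uninjured one. For Anpep the injured libraries were the 3 lowest, whereas for Dpep1 injured 1 lay above sham 2.

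Mt3, a metallothionein best known from brain, had 3.15, 0.595 and 0.278 CPM in injured libraries, 24.3 and 1.41 CPM in sham libraries and 1.39 CPM in the uninjured one. Only sham 1 stood out, the library richest in Schwann cell markers (5241 CPM summed, against 303 to 593 CPM in injured libraries and 854 and 945 CPM in sham 2 and the uninjured one); their part in its level was not tested. Selenop, the selenium carrier protein, had 245, 145 and 72.1 CPM in injured libraries, 393 and 318 CPM in sham libraries and 523 CPM in the uninjured one. Lrp8, a receptor that takes up that carrier, had 24.6, 25.2 and 33.3 CPM in injured libraries, 14.1 and 8.73 CPM in sham libraries and 0.292 CPM in the uninjured one. The carrier and the receptor thus had opposite orders, with folds of -1.21 ± 0.54 and 1.28 ± 0.62 (SE) against sham control, neither called by edgeR or DESeq2. Blvra, biliverdin reductase, which acts after haem oxygenase, ranged from 25.1 to 51.3 CPM in injured libraries and had 15.6 and 27.0 CPM in sham libraries and 8.67 CPM in the uninjured one. Aox1, aldehyde oxidase, had 0.272, 0.578 and 1.07 CPM in injured libraries, 8.81 and 1.60 CPM in sham libraries and 15.9 CPM in the uninjured one, and DESeq2 called it lower against all non-injured libraries (adjusted p = 0.0382). Its relative Xdh, xanthine dehydrogenase, had 62.1, 19.6 and 39.5 CPM in injured libraries, 119.6 and 57.5 CPM in sham libraries and 25.3 CPM in the uninjured one. The groups did not overlap in Aox1 and overlapped in Xdh. Mlx, the partner of Mlxipl on DNA, had 31.1, 27.9 and 20.7 CPM in injured libraries, 8.76 and 15.4 CPM in sham libraries and 23.6 CPM in the uninjured one.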

How the data were processed

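RNA of sorted mouse skeletal stem cells was sequenced in 6 libraries, grouped by title and treatment label. The deposited table holds whole-number counts per gene symbol. The submitters' processing notes list Salmon 0.12.0, DESeq2 1.22.2, DESeq and 2 genome builds, GRCm38.p6 and mm9, with no role for any of them. How transcripts were summed to genes, the annotation and any use of strand in counting are items not given in the sources used here; reads of antisense partners may thus be mixed. Column totals differ, which alone does not show that the authors applied no scaling. Members were taken by symbol, and members, roles, lists and named genes were chosen with earlier results of these data known. For the genes named with every library's value, the rule took up to 3 members per role with the smallest p in each comparison, the 2 most abundant, a fixed set, and up to 2 genes per list with the smallest p; other values are given as ranges or were added to complete a family.

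Counts were scaled by TMM, filtered with filterByExpr (minimum count 10) and tested over the whole table with edgeR 4.0.16 under R 4.3.3 (quasi-likelihood F test, Benjamini-Hochberg adjustment, threshold 0.05), as 3 groups with 3 residual degrees of freedom or as injured against all non-injured with 4. Standard errors were derived from the F statistic. The test was run on simulated counts with a fixed, known spread and large changes in the more abundant genes. That run does not measure what the test can find at the spread of these libraries. DESeq2 1.42.0, limma-voom 3.58.1, other scalings, no filter, a replicate block and left-out libraries were alternatives. With 2 or 3 libraries a group, the number of libraries limits the precision; the part of depth was not compared. The shared sequence of transcripts was counted over stretches of 31 bases in GENCODE M21; promoters are from RefSeq, and no other coordinates are given because the authors' build is open.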

Additional observations from a re-analysis of the deposited data

How the results depend on the processing

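Of the counts of calls, DESeq2 gave 369 genes against sham control and 345 against all non-injured libraries, among them 3 and 4 members, limma-voom gave 1 and 7 genes, and edgeR without the low-count filter gave 3 and 5, in the last 2 cases with no member. In every other alternative run, edgeR called 0 genes. Among the genes named by the rule, which does not include Aldh3a1, 12 results passed the threshold with DESeq2 alone. In 74 combinations of a fold and an alternative setting the sign was opposite, beside 1393 with sign and call unchanged. A fold was counted once for each setting, so many of the 74 concern the same genes. None of the 74 passed a threshold in the setting reported, and the cause was not tested. Gstm1, Gstm3, Gpx3, Sod3, Gclc, Txnip, Gpx7, Gpx8, Prdx1, Prdx4 and Gss kept the sign of their fold in all 17 settings against sham control and all 15 against all non-injured libraries.

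The folds that changed sign, as log2 and against sham control, were these. With limma-voom Nqo1 was at 0.17 and Prdx5 at 0.0093. With library size alone Mt2 was at 0.11, Nqo1 at 0.11 and Prdx5 at 0.085. Without the blood-rich libraries, sham 1 and injured 1, Gclm was at 0.085, Keap1 at -0.024, Nfe2l2 at 0.064, Nqo1 at 2.12, Prdx5 at 0.32 and Txn1 at -0.058. Without sham 1 and the uninjured library, an alternative chosen after seeing the data, Gpx1 was at 0.12, Gpx4 at 0.43, Nfe2l2 at 0.071, Nqo1 at 1.69, Prdx5 at 0.74 and Txn1 at -0.020.

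Against all non-injured libraries, DESeq2 and size factors by relative log expression gave Mt2 at -0.0089 and Nqo1 at -0.063. Without the blood-rich libraries Gpx4 was at 0.0055, Hmox1 at -0.35 and Mt2 at -0.27. Without sham 1 and the uninjured library Gpx1 was at 0.12, Gpx4 at 0.43, Hmox1 at -0.49, Mt2 at -0.63, Nfe2l2 at 0.071 and Txn1 at -0.020.

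With each library left out in turn, which leaves 1 sham library assumed to vary like the other groups, folds that changed sign against sham control ranged from -1.05 to 0.12 for Gpx1, -0.76 to 0.43 for Gpx4, -0.17 to 1.32 for Gsr, -0.97 to 0.29 for Hmox1, -0.92 to 0.26 for Mt1 and -0.63 to 0.81 for Mt2. The ranges were -0.48 to 0.072 for Nfe2l2, -0.81 to 1.69 for Nqo1, -0.12 to 1.27 for Prdx2, -0.49 to 0.74 for Prdx5, -0.14 to 0.58 for Sod1, -1.13 to 0.11 for Srxn1 and -0.020 to 0.61 for Txn1. Against all non-injured libraries they ranged from -0.73 to 0.41 for Gpx1, -0.52 to 0.44 for Gpx4, -0.42 to 1.19 for Hmox1, -0.54 to 0.27 for Mt1, -0.30 to 0.54 for Mt2, -0.54 to 0.76 for Nqo1, -0.061 to 1.09 for Prdx5 and -0.056 to 0.66 for Sod1.

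Replicate numbers 1 and 2 occur in both the injured and the sham group. The deviations of same-numbered libraries from their group means correlated at 0.325 and -0.0247. With 2 sham libraries these deviations mirror each other, so differently numbered pairs gave -0.325 and 0.0247 by construction. These values therefore cannot decide whether the numbers pair the libraries. A replicate block over these 4 libraries called 0 genes, with 583 at an unadjusted p under 0.05, against 679 for the same 4 without the block. With the block Gpx4 was at 0.091, Hmox1 at 0.24, Mt2 at 0.35 and Prdx5 at 0.35, and without it Hmox1 was at 0.28, Mt2 at 0.21 and Prdx5 at 0.25. The number of libraries limits which differences can be called, and the part of sequencing depth was not tested.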
